A study of Drosophila melanogaster with 2 samples.

Results

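The 5 GATA factor genes of Drosophila melanogaster, pnr, srp, grn, GATAd and GATAe, and the gene of their cofactor ush were examined in a map of the places that the CG10979 protein took along the genome. These 6 of 13945 protein-coding genes were chosen by name, with earlier results of the same data known, among them the peaks at the starts of pnr and ush and a strong peak inside ush, so their peak values are a description and were not tested. The map came from chromatin immunoprecipitation followed by sequencing (ChIP-seq), in which an antibody against green fluorescent protein pulled down CG10979 protein carrying that tag at its C terminus. There was 1 group, with 2 biological replicates numbered 2 and 3, each of whole embryos of both sexes pooled, 0 to 14 h old, from a single transgenic fly line that stably expressed CG10979-eGFP. No second genotype, stage or treatment was included, and the promoter that drives the tagged copy is not given in the sources used here. Whole embryos mix cell types and stages, so a peak does not tell in which cells the protein sat at that place.

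Peaks came as 4 lists. Each replicate and the pool of both had a relaxed list of 30000 peaks, and 7630 pooled peaks made up the list that passed the authors' threshold on the irreproducible discovery rate (IDR), which asks how well peak ranks hold between replicates. Every peak carried a signal value, a score that ranks peaks within its own list and that moves with depth. No counts came with the lists, so depth is unknown. Signal values given without a replicate number are from the IDR list, or from the pooled list where a peak was not in the IDR list. A gene was said to have a start peak when a peak summit was at most 500 bp away from any transcript start annotated for it, and its extended span was the gene with 10 kb added at either end.

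GATA factors are zinc finger transcription factors that bind short DNA words built around the bases GATA. In flies, pnr acts in the dorsal epidermis, the heart and the thorax, srp in blood cells, fat body and endoderm, and GATAe in the midgut downstream of srp. grn acts in neuron identity and in the shaping of epithelia, and GATAd is expressed in the gut. The ush protein, a fly member of the Friend of GATA (FOG) family, has many zinc fingers, binds GATA factors such as pnr and srp, and changes what they do to their target genes.

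The sequences under the leading peaks show what the summits in these genes looked like. Each run is an IDR summit with 50 bases to either side, on the plus strand of dm6, 5′ to 3′, read from the NCBI RefSeq genome of Release 6. Capitals mark the 4 GATA site words on either strand, which are AGATAA and AGATAG, beginning with A, and TGATAA and TGATAG, beginning with T. On the minus strand the last of these reads CTATCA. The first sequence is shown because it is the strongest peak of all 6 genes, the next as the ush summit with the most GATA site words, and the third as a strong ush peak with a word close to its summit. After these come the strongest peaks of srp, pnr, grn and GATAd, and last the start peak of grn, which had the highest GC content of the 8.
ush, strongest peak, chr2L:481030-481130: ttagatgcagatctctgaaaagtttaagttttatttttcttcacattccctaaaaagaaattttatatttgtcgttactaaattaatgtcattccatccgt
ush, most GATA site words, chr2L:493378-493478: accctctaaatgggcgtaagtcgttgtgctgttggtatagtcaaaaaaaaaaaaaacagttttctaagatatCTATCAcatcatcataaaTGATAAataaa
ush, intronic peak of the distal stretch, chr2L:520797-520897: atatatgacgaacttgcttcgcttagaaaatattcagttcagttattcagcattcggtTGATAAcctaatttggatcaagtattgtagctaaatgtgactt
srp, strongest peak, chr3R:15984528-15984628: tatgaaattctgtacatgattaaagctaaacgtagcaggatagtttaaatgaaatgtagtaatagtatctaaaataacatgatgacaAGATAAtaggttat
pnr, strongest peak, chr3R:16033951-16034051: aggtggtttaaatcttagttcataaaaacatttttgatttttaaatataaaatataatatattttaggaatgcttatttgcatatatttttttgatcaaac
grn, strongest peak, chr3R:8171668-8171768: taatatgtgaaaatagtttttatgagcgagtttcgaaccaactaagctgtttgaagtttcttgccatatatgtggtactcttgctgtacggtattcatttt
GATAd, strongest peak, chr2L:10334986-10335086: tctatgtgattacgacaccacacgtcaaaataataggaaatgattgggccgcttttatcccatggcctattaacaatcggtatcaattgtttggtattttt
grn, start peak, chr3R:8181553-8181653: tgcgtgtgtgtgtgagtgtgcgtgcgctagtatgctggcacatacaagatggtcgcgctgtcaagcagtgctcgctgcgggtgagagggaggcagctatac
The strongest ush window holds no GATA site word, whereas the window at 493428, with a signal value of only 238.2, holds 2. The summit there lies in a long run of A, and the pnr window is almost all A and T, at 17.8% GC.

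All 6 genes had at least 1 IDR summit in the extended span, against 71.4% of protein-coding genes. The number of such summits was 4 at pnr, 4 at srp, 4 at grn, 5 at GATAd, 3 at GATAe and 22 at ush, while the median protein-coding gene had 2. Because srp, GATAe and pnr are neighbours on chromosome 3R, 3 summits lay in the extended spans of a pair of them, and the 6 genes together had 39 different IDR peaks, 22 of ush and 17 of the GATA factor genes. Of all protein-coding genes, 32.6% had 3 or more summits, 18.6% had 4 or more and 10.2% had 5 or more. The GATA factor genes thus had counts that many other genes also had, and ush stood near the top of the genome. Within the genes themselves, without the added 10 kb, 17 summits lay in ush, 2 in grn, 1 each in pnr, srp and GATAd, and 0 in GATAe. The relaxed lists held 134 pooled, 135 replicate 2 and 130 replicate 3 summits in the extended spans of the 6 genes. Of those pooled summits, 29.1% were in the IDR list, against 25.4% of all pooled summits.

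ush (FBgn0003963) spans 476220 to 540560 of chromosome 2L (dm6, plus strand) and held the strongest peak of the 6 genes. Its summit at 481080, in an intron of ush, had a signal value of 7905 and rank 4 of the 7630 IDR peaks. Replicate 2 gave that peak 4552, rank 2 of its list, and replicate 3 gave it 3322, rank 7. That put it among the leading peaks of the embryo in both replicates, and 21.2 times the median IDR signal value of 373.3. The nearest annotated start was not one of ush but that of cbt, which encodes a transcription factor with zinc fingers and is nested in ush on the minus strand, 1392 bp away at 479688.

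The second strongest ush peak, at 480062, lay between the strongest and cbt, 374 bp upstream of the cbt start. Its signal value was 2478, rank 198, with 1453 in replicate 2 and 1051 in replicate 3. The strongest peak was therefore 3.19 times the next one in the same gene, and these neighbours were the top pair of ush in both replicates. The third, at 520847, had 1477, with 785.4 in replicate 2 and 689.6 in replicate 3. The fourth, at 472491, lay outside ush, 291 bp from a start of its neighbour CG4297, and had 1259, with 745.2 in replicate 2 and 513.7 in replicate 3. The fifth, at 522116, had 1167, with 614.1 in replicate 2 and 559.1 in replicate 3. These 5 peaks ranked among the 1000 strongest of the IDR list. That is 22.7% of the ush peaks, against 13.1% of all IDR peaks and 0 of the 17 peaks of the GATA factor genes. The sixth, at 516222 in an intron, was just outside that rank with 1046.

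The 22 ush summits fell into 3 stretches. The one upstream of the gene held 5 summits between 468908 and 472491, in or just outside CG4297, with a median signal value of 636.9. The stretch next to cbt held 7 summits between 480062 and 493428, with a median of 340.7, so that most of them were ordinary peaks beside the very strong pair. The distal stretch held 10 summits between 510686 and 530450, with a median of 439.4, and surrounded the internal starts of ush at 523466 and 523736. Neighbouring summits were 1.56 kb apart at the median, but 17.3 kb without an IDR summit separated the stretches inside the gene. A further 10.1 kb lay between the last summit and the 3′ end of the gene.

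**Figure D1:**
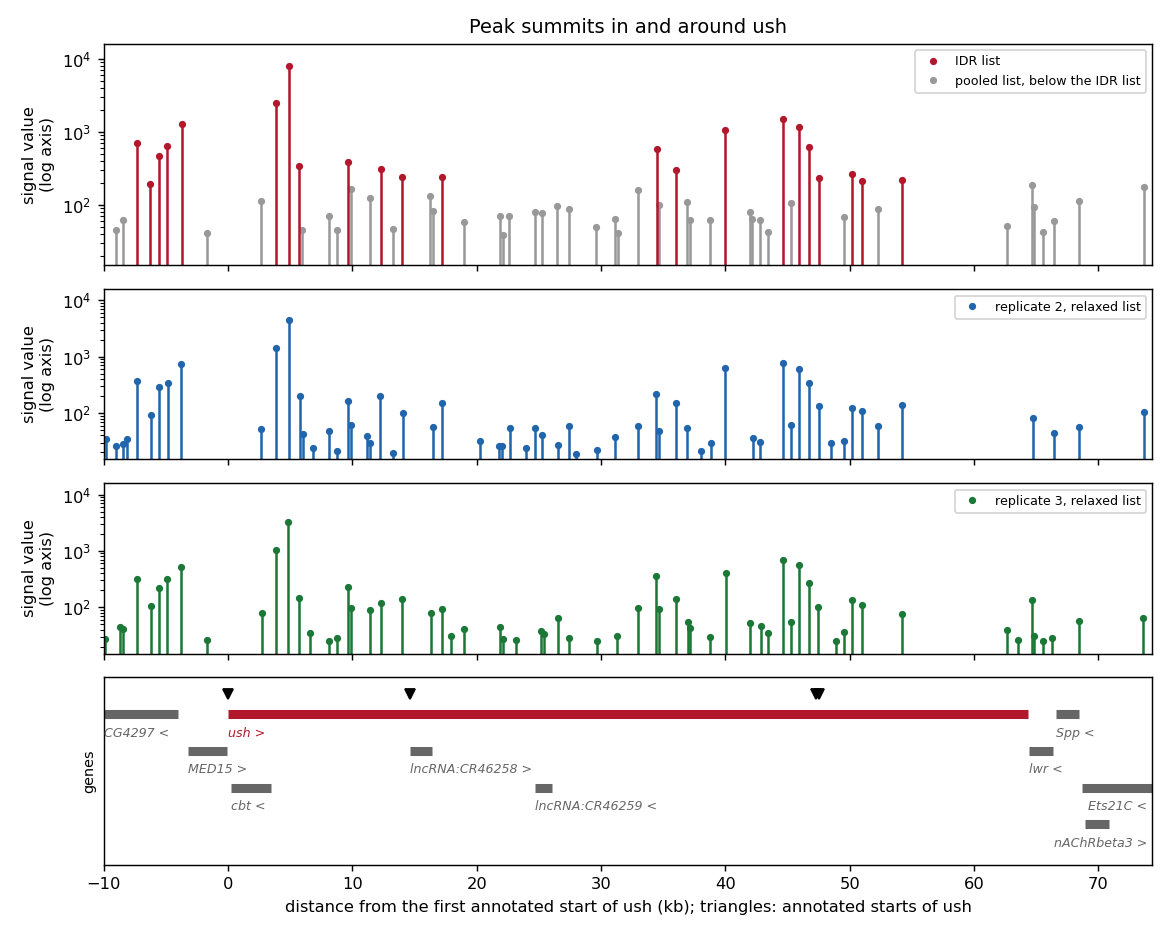
Peak summits across ush and 10 kb to either side, by distance from its first annotated start (kb), with signal value on a log axis: IDR peaks in red and weaker pooled peaks in grey at the top, then replicate 2 and replicate 3. The tallest line, 7905 in the IDR list, stands 4.86 kb into the gene in all 3 panels, and the 22 red summits fall into 3 stretches.

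Most ush summits were not at its own starts. Of the 22, 14 lay in introns of ush, 3 in introns of CG4297, 1 in an exon of ush and 4 within 500 bp of a start, and of those 4 starts 2 belonged to CG4297, 1 to cbt and 1 to ush. An annotated ush start was the nearest start for 11 of the 22, and for 3 of these that start, at 490835, is also the annotated start of the long noncoding gene lncRNA:CR46258. The others were nearest to starts of CG4297, of cbt, or of lncRNA:CR46258 and lncRNA:CR46259, noncoding genes that lie inside ush. No IDR summit lay within 500 bp of the start at 476220, the first of the 4 annotated starts of ush, and the nearest to it was the CG4297 peak 3729 bp away. The start peak of ush was nearest to the internal start at 523736, with its summit at 523726 in the 5′ untranslated part of an exon. Its signal value was 232.8, rank 6240, with 132.1 in replicate 2 and 101.8 in replicate 3, below the 4 intronic peaks between 516222 and 522953 upstream of it.

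The signal of the ush peaks spread over a wide range, from 192.6 at 469975 to 7905, with a median of 428.5, and 12 of the 22 were above the IDR median. Peaks of the GATA factor genes stayed between 190.6 and 703.5, with a median of 254.8, and 3 of the 17 were above the IDR median. Those 3 were the strongest peaks of srp, of grn and of the interval between srp and GATAe.

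**Figure D2:**
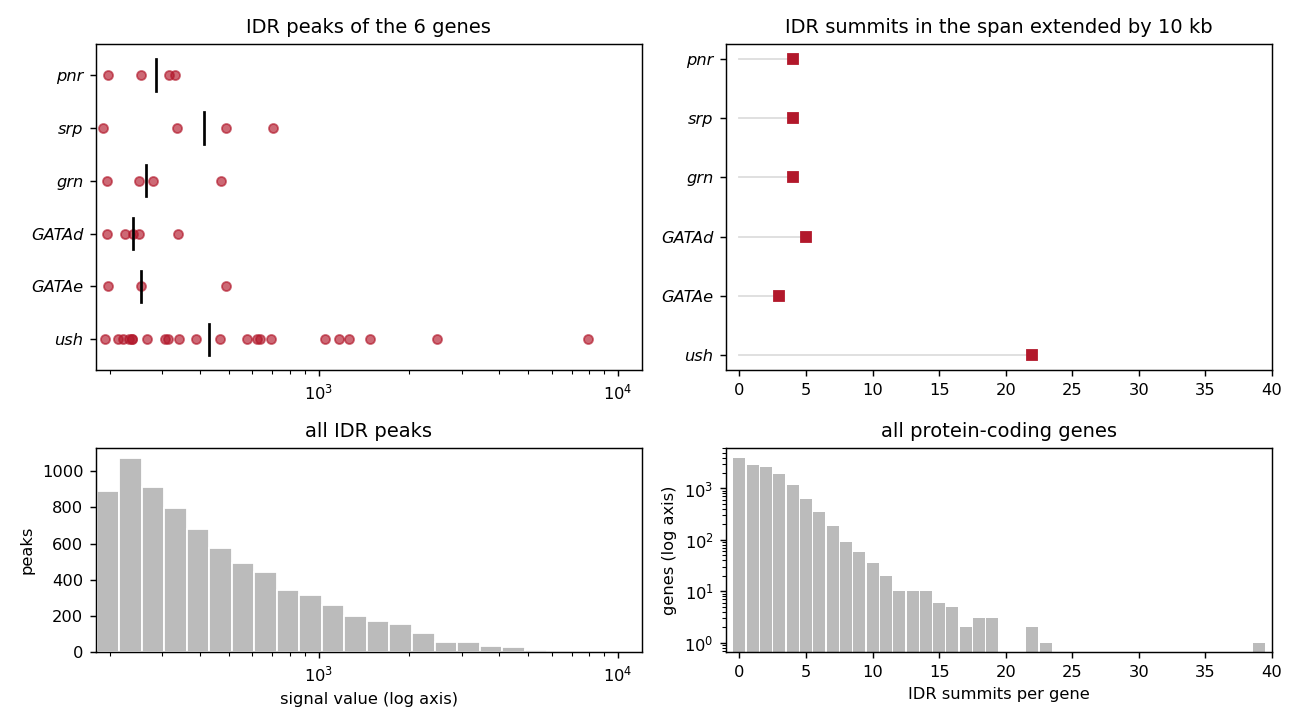
Left, signal values (log axis) of the IDR peaks in the extended span of each of the 6 genes, with a bar at the median, above the same axis for all 7630 IDR peaks. Right, IDR summits per extended span for the 6 genes, above all 13945 protein-coding genes on a log count axis: ush stands at 22, in the tail of the distribution, and the other 5 genes at 3 to 5, where many genes lie.

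Among the GATA factor genes, srp (FBgn0003507, chromosome 3R at 15986152 to 16004085, plus strand) had the strongest peak, and it lay in front of the gene. The summit at 15984578, in the intergenic stretch 1574 bp upstream of the first srp start, had a signal value of 703.5, rank 1816, with 390.1 in replicate 2 and 310.7 in replicate 3. Another upstream peak at 15983793 had 336.6. Replicate 3 had a counterpart of 184.5 at 15983815, whereas the nearest replicate 2 summits, at 15983683 with 161.3 and at 15983899 with 61.6, were both more than 100 bp off, so that this was the 1 peak of the 39 without a matched summit in replicate 2. Inside srp a single IDR summit, at 15993565, lay in an exon of lncRNA:CR44133, a long noncoding gene within srp, 575 bp upstream of the srp start at 15994140. At 190.6 and rank 7599 it was close to the end of the IDR list, with 94.7 in replicate 2 and 95.4 in replicate 3. Pooled summits within 500 bp of an srp start reached only 51.6, below the lowest IDR value of 189.9.

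GATAe (FBgn0038391, chromosome 3R at 16009105 to 16019133, plus strand) had no IDR summit inside the gene or at either of its starts. The one nearest to a GATAe start, at 16004199 between srp and GATAe, was 4906 bp upstream of it and just past the 3′ end of srp. It had a signal value of 488.9, rank 2830, with 203.5 in replicate 2 and 289.3 in replicate 3. A start nearer to that summit, 3874 bp away, was that of lncRNA:CR42839, a noncoding gene on the minus strand between srp and GATAe. The strongest pooled summit within 500 bp of a GATAe start, which was also the strongest inside the gene, had 101.8, with start values of 52.8 in replicate 2 and 47.2 in replicate 3. Both replicates thus had low signal at GATAe itself. Its other IDR summits, at 16020866 with 197.7 and at 16025904 with 254.8, lay downstream of it and were also in the extended span of pnr.

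pnr (FBgn0003117, chromosome 3R at 16026079 to 16041796, plus strand) had a start peak and an intronic peak of like size. The start peak at 16025904 lay 175 bp upstream of the start at 16026079, with a signal value of 254.8 (rank 5685), 126.5 in replicate 2 and 130.2 in replicate 3. The intronic peak at 16034001 lay 585 bp upstream of the internal start at 16034586, with 331.0 (rank 4352), 162.2 in replicate 2 and 168.1 in replicate 3. Within each pair the signal values of the replicates were close. By rank, both peaks stood lower in replicate 2 (6262 and 4916) than in replicate 3 (5432 and 4022). The remaining pnr summits were the intergenic one at 16020866 and one at 16049624, 46 bp from the start of CG5013 and beyond the 3′ end of pnr, with 315.3.

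**Figure D3:**
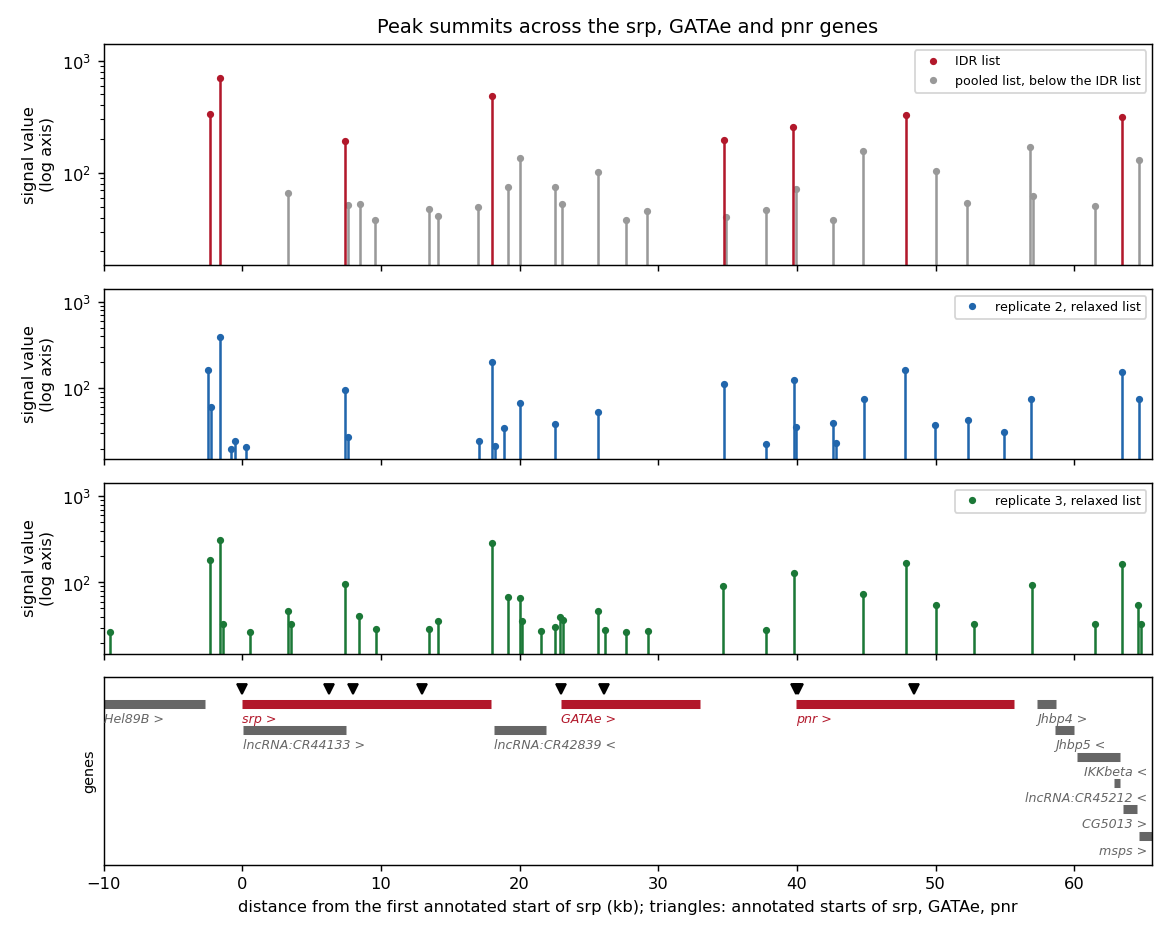
Peak summits across the neighbouring genes srp, GATAe and pnr, by distance from the first annotated start of srp (kb), with signal value on a log axis for the IDR and pooled lists, replicate 2 and replicate 3. The tallest summit, 703.5, stands 1.57 kb upstream of srp, and no red summit falls inside GATAe.

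grn (FBgn0001138, chromosome 3R at 8147368 to 8181444, minus strand) carried its strongest peak inside an intron. That summit, at 8171718 and 9.73 kb into the gene, had a signal value of 472.3, rank 2950, and the largest ratio of replicate 2 over replicate 3 among the 38 peaks matched in both, with 314.2 in replicate 2 and 160.7 in replicate 3. A weaker intronic peak at 8154166 had 250.8, with 125.5 in replicate 2 and 114.3 in replicate 3. The annotated start nearest to that summit was that of tRNA:Arg-ACG-1-10, 13124 bp away. The start peak at 8181603, 159 bp upstream of the only annotated start, had 196.3 at rank 7359, with 80.8 in replicate 2 and 109.0 in replicate 3. Both values were low, and in replicate 2 it ranked 9443, outside the 7630 strongest peaks of that replicate. An intergenic peak 8247 bp upstream had 279.9, and the start of lncRNA:CR43302 was nearer to it, at 8020 bp.

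GATAd (FBgn0032223, chromosome 2L at 10333734 to 10339185, plus strand) is the shortest of the 6 genes and had 1 IDR summit inside it, in an intron. That peak at 10335036, 1122 bp downstream of the start at 10333914, had a signal value of 337.3 (rank 4268), with 151.0 in replicate 2 and 193.0 in replicate 3. The 4 other IDR summits of its extended span all lay at starts of neighbouring genes. They were the starts of Cox10, which encodes an enzyme of heme A synthesis, of SamDC, an enzyme of polyamine synthesis, of CG31715 and of Sps2, a selenophosphate synthetase, with signal values of 196.7 to 251.3. At the GATAd starts themselves the pooled list reached 107.0, with 54.8 in replicate 2 and 53.8 in replicate 3.

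**Figure D4:**
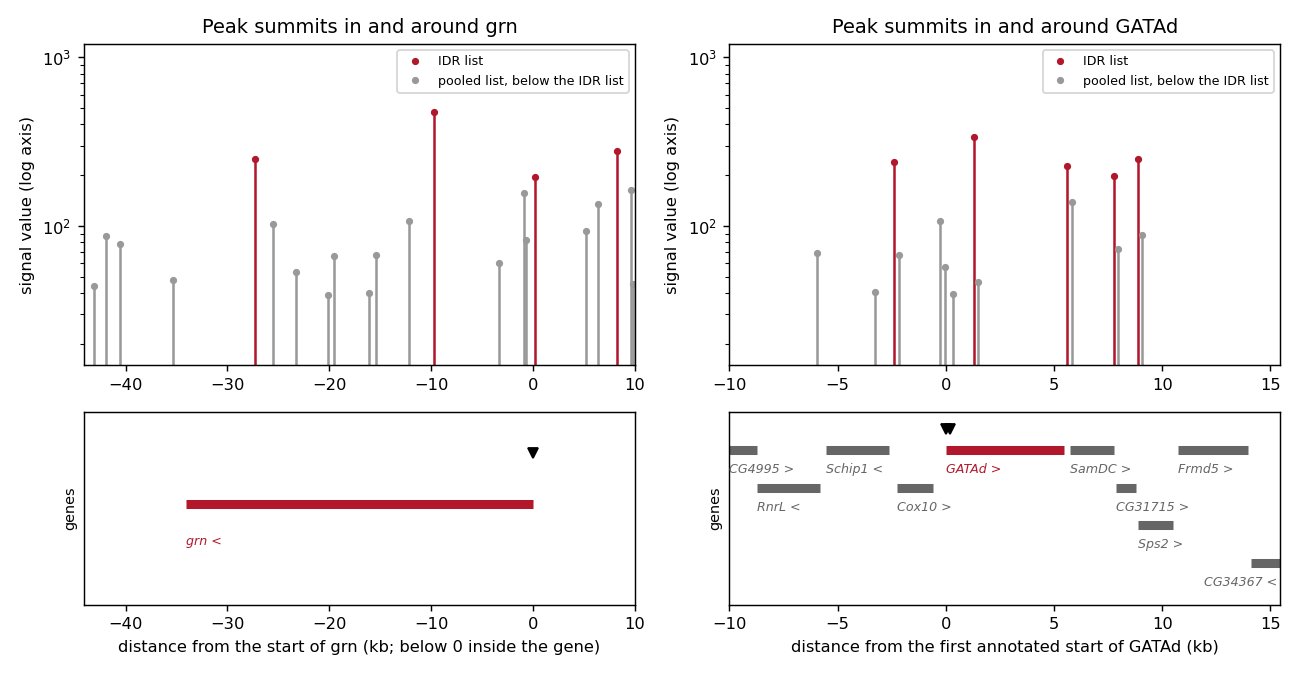
Peak summits around grn (left) and GATAd (right), by distance from the annotated start (kb) with signal value on a log axis, IDR peaks in red and weaker pooled peaks in grey; grn reads from right to left. The 4 red summits outside GATAd stand at starts of neighbouring genes, and the tallest at grn, 472.3, stands inside the gene.

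A start peak was present in 3 of the 6 genes, pnr, grn and ush, against 25.2% of protein-coding genes. The other 3, srp, GATAd and GATAe, had pooled but no IDR summits within 500 bp of a start. All 3 start peaks were in the weaker part of the IDR list, at 254.8, 196.3 and 232.8, against the IDR median of 373.3, and 0 of them remained among its 3815 strongest peaks. The choice of 500 bp left out summits close by. Just outside it were ush summits 513 bp from a start, with 619.2, and 595 bp from another, with 238.1. The srp summit at 575 bp and the pnr summit at 585 bp were also just outside, while the farthest inside was that of pnr at 175 bp. At the lower end of the IDR list, the ush region had 192.6 just inside and 187.7, at 540843 near the 3′ end of the gene, just outside. Beyond the added 10 kb, the nearest IDR peak to srp had 886.4 at 11722 bp and the nearest to GATAd had 442.6 at 12190 bp, both stronger than any peak counted for these genes.

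By location, 21 of the 39 summits (53.8%) lay in introns, against 37.6% of all IDR peaks. Another 11 (28.2%) lay within 500 bp of some gene's start, against 40.2%, 2 (5.13%) in exons, against 2.88%, and 5 (12.8%) were intergenic, against 19.3%. The intronic share came mostly from ush, with 17 of its 22 summits, while the GATA factor genes had 4 of 17 in introns, 7 at starts, 1 in an exon and all 5 intergenic ones. Of the 11 summits at starts, 8 were at starts of other genes and 3 at starts of the 6 genes.

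ush is 64.3 kb long, a length that 198 protein-coding genes reach or exceed, itself included. Per 10 kb of extended span, ush had 2.61 IDR summits, GATAd 1.96, pnr 1.12, srp 1.05, GATAe 0.999 and grn 0.740. The genome as a whole had 0.570 and the median protein-coding gene 0.491, so that all 6 values were above both. By number of summits ush was level with CG1677, the only other gene with 22, and behind kirre with 39 and hth with 23 (both picked for mention after seeing the counts). CG1677 on chromosome X, the gene most like ush in this measure, is 125 kb long, and its strongest peak had 3815. By density ush ranked 312 of 13945, GATAd 911, pnr 3881, srp 3990, GATAe 4067 and grn 6503, so that grn was close to the middle. The 3 summits shared by neighbouring genes on chromosome 3R were counted for each of them.

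Between replicates, 38 of the 39 peaks had a summit within 100 bp in both lists, against 96.3% of all IDR peaks. Each of the 39 peaks had the same rank in the IDR list as in the pooled list, down to rank 7599. The pool holds both replicates, so the count of 38 says little by itself. A place in the IDR list does not show that a single peak ranked alike in each replicate. In each replicate 34 of the 39 were among its own 7630 strongest peaks, and 30 (76.9%) were so in both, against 80.3% of all IDR peaks. The log2 ratio of signal value, replicate 2 over replicate 3, had a median of 0.15 and an SD of 0.42 over the 38 matched peaks, against a median of 0.28 and an SD of 0.44 over 7351 matched IDR peaks. Replicate 2 was higher at 25 of 38 peaks (65.8%), against 77.5% of all matched IDR peaks. It was higher at 17 of 22 ush peaks (77.3%, median log2 ratio 0.31) and at 8 of 16 peaks of the GATA factor genes (50%, median 0.05). Over the 5546 matched IDR peaks up to 703.5, the highest value of the GATA factor genes, replicate 2 was higher at 72.8% with a median of 0.24, a range set after seeing the values. The log2 ratio was highest at the grn intronic peak at 8171718, with 0.97, and lowest at the ush intronic peak at 510686, with 219.3 in replicate 2, 360.6 in replicate 3 and a log2 ratio of −0.72. Peaks of 1 gene share their libraries and are not independent replicates.

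**Figure D5:**
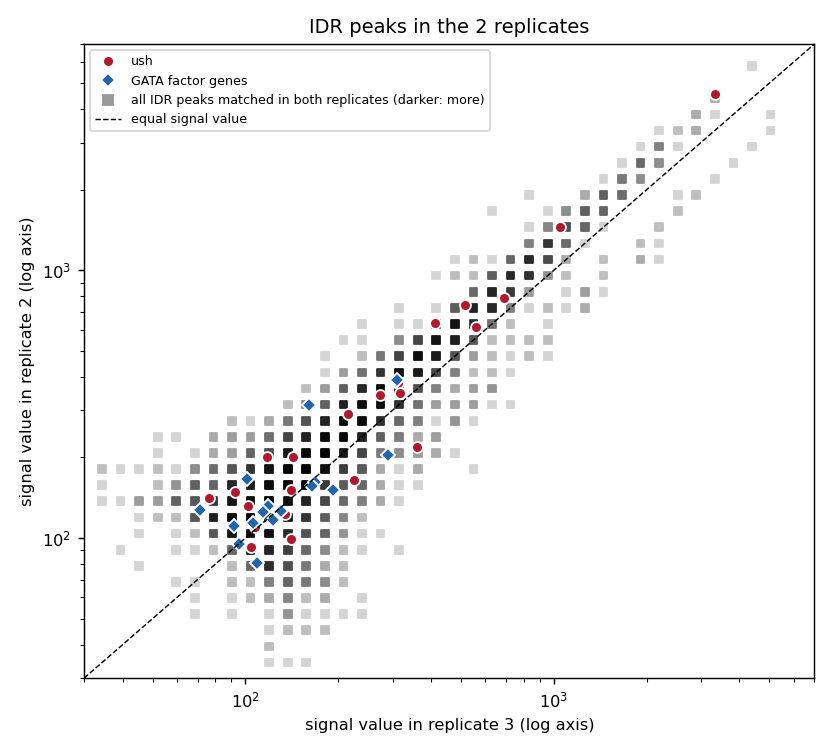
Signal value in replicate 2 against replicate 3 (both log axes) for the matched IDR peaks of ush (red circles) and of the GATA factor genes (blue diamonds), over all matched IDR peaks in grey, darker where more peaks fall. The strongest ush peak, at 4552 in replicate 2 and 3322 in replicate 3, stands above the dashed line of equal values, and the GATA factor genes lie on both sides of it at low signal.

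Sequence words were counted on both strands in windows of a summit with 50 bases to either side, and in windows of the same length centred 300 bp to either side. A GATA site word, 1 of the 4 named with the sequences, was found in 9 of the 39 windows (23.1%, 95% Wilson interval 12.6 to 38.3), against 24.7% of all IDR windows. The flanks held one in 16.7% of windows at the 6 genes and in 15% at all IDR peaks. The GATA genes and ush thus had a share close to that of IDR peaks in general. At ush 6 of 22 windows held a word and at the GATA factor genes 3 of 17. The core GATA alone, which every site word contains, was in 46.2% of the windows, against 57.3% of all IDR windows.

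Other words gave small counts. TATAAA was in 9 of 39 windows (23.1%), against 26.1% of all IDR windows, and in 2.56% of flanks, against 9.48%. GAGAG, which may also overlap itself, was in 6 of 39 (15.4%, Wilson interval 7.25 to 29.7), against 8.07% of all IDR windows, and in 21.8% of flanks, against 15%. AGATGGC was in 1 window, at ush (2.56%), against 2.06% of all IDR windows. CAGGTAG and TATCGAT were in 0 of the 39, which allows shares of up to 8.97% by the Wilson interval, against 0.393% and 2.95% of all IDR windows. TATAAA was thus more frequent at the summits than in their flanks, as it was at IDR peaks in general.

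Base composition dipped at the summits. The summit windows held 33.3% ± 10.3 GC (SD over 39 windows) at the 6 genes and 31.8% ± 9.51 over all IDR windows, while the flanks held 45.3% at the 6 genes and 44.7% over all. The summit window was below its own flanks in 29 of the 39 (74.4%), against 82.8% of all IDR windows. The start peaks of ush, with 60.4%, and grn, with 58.4%, were the highest of the 39, and that of pnr had 41.6%.

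Genes of tissues where GATA factors act in flies, and partners of GATA and FOG proteins, were read from 5 lists. These lists were chosen with earlier results of these data known. Of 55 different genes found in the annotation, 11 (20%) had a start peak, below the 25.2% of all protein-coding genes. Of the 15 genes of blood cell fate and function, 1 had a start peak, Pvf3, a growth factor for blood cells, with a signal value of 192.2. Of the 16 genes of the heart, dorsal mesoderm and amnioserosa, 4 had one. They were tin, a heart and mesoderm homeobox gene, with 2107, peb, a zinc finger gene of the amnioserosa, with 486.4, Ance, a peptidase gene, with 378.8, and tkv, a receptor for the growth factor dpp, with 208.0. Of the 10 midgut endoderm genes, 4 had one, the transcription factor genes fkh with 325.0, lab with 309.6, cad with 270.2 and dve with 210.1.

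Of the 11 genes that pattern the dorsal thorax and its bristles with pnr, 0 had a start peak, against 25.2% of all protein-coding genes. With so few genes in a list, such a count says little. Of the 7 corepressor and chromatin partner genes found, 2 had one, gro, a corepressor, with 1642 and MTA1-like, a subunit of a deacetylase complex, with 301.4. That list held 8 symbols, and CtBp was left out because it was not found in the annotation under that name. In the extended span, 93.3% of the blood genes, 93.8% of the heart and amnioserosa genes, 80.0% of the midgut genes, 81.8% of the thorax genes and 100% of the partner genes had an IDR summit, against 71.4% of protein-coding genes. The median number of such summits was 3 in each of the 5 lists. tin and gro were the listed genes with the strongest start peaks, and both exceeded every start peak of the GATA factor genes and ush themselves. The tagged gene CG10979 had no IDR summit at its start, where the pooled list reached 140.5, and 2 in its extended span.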

How the data were processed

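The authors deposited peaks as narrowPeak lists on dm6. Per the text deposited beside them, calling ran on the alignment of each replicate and on the pool, with a control alignment, and the IDR step used the resulting lists. Per the labels, chromatin was sheared by sonication. Which caller and aligner were used, and in which version, is not given in the sources used here. Column 7, the signal value, is a score that the authors deposited. The −log10 q value that the authors deposited has the same ceiling value of 4.27 at every IDR peak and gave no ranking. Summits came from the deposited offsets, whose origin may shift a summit by 1 bp.

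Gene models were those of Ensembl release 115, without transposable element entries, and bases were read from the NCBI RefSeq genome. Both are of Release 6, and coordinates are counted from 1. A summit was placed at a start (at most 500 bp from any transcript start), else in an exon, an intron or between genes. Replicate summits were matched within 100 bp. Sequence shares have 95% Wilson intervals, which cover only the number of windows. The 6 genes, the gene lists and the words were chosen with earlier results of these data known, and no test was made. Genes are named if they are one of the 6 genes or CG10979, hold or start nearest to one of the 39 summits, have a start peak in a list (at most 4 per list), or match ush in number of summits. CtBp is named as a listed symbol that was not found. The search for start peaks, the matching of summits and the search for GATA site words were tested on simulated data. The counts in gene spans, the locations and the GC content were not. Alternatives were other start windows, extensions, window lengths and matching rules, the 3815 strongest IDR peaks, and the 7630 strongest peaks of each replicate alone. Scripts ran under Python 3.11.15 with matplotlib 3.10.9, scipy 1.17.1, pandas 2.3.3 and numpy 2.4.6.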

Additional observations from a re-analysis of the deposited data

How the results depend on the processing

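Of 45 alternative values for 15 results, 32 stayed within a set margin of the value reported and 13 moved beyond it. The margin was a factor of 1.5 for counts. For other values it was the SD of the 2 replicates, or over peaks for the log2 ratio. It was wide: matched peaks went from 38 to 29 with a reciprocal overlap of 50% and stayed within it. Genes with a summit in the extended span went from 6 to 4 among the 3815 strongest IDR peaks, also within it. Only the log2 ratio could change sign, and it did not. Among the 3815 strongest IDR peaks, the 6 genes had 0 start peaks in place of 3 and the 55 listed genes 4 in place of 11, while the share of all protein-coding genes was 13.1% in place of 25.2%, and the extended spans 15 summits in place of 39, of which 10 in place of 21 lay in introns. With a start window of 200 bp, 6 listed genes had a start peak, against 18.3% of all protein-coding genes. Without the added 10 kb, 22 summits were left, the strongest srp peak had 190.6 in place of 703.5, and GATAe gave no value. With 20 kb added, the strongest peak had 886.4 at srp and 442.6 at GATAd, in place of 337.3. A GATA site word was in 10.3% of windows of 51 bp, against 13.4% of all IDR windows, and in 41.0% of windows with 100 bp to either side, against 40.3%, while the core GATA was in 46.2%, against 57.3%. Mean GC was 35.8% in those longer windows, in place of 33.3%. The cause was not tested, beyond what the size of each window or list fixes.

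For each replicate alone, its list was cut to its 7630 strongest peaks, the length of the IDR list. Cut so, each gave 2 to 3 start peaks among the 6 genes, 11 to 12 among the 55 listed genes and 36 summits in the extended spans. Of all protein-coding genes, 24.4% had a start peak in replicate 2 cut so and 26.3% in replicate 3. Replicate 2 had a grn start peak of 80.8, but at rank 9443 it fell outside that cut. On ranks in place of signal values, the median log2 ratio of the replicates was 0.0026, against 0.056 over all IDR peaks. No paired analysis was possible because there is 1 group. The lists hold no counts, so depth is unknown, and each relaxed list ends at 30000 peaks, so weaker peaks may be cut off. Weak start peaks such as that of grn rest on signal near the lower end of the IDR list.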
